A study of Mus musculus with 8 samples.

Results

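The mitosis and G2/M genes are 43 mouse genes whose products take a cell from the end of DNA synthesis through the division of its chromosomes and cytoplasm. They were listed by symbol for this function and not by their values, though with earlier results of these data known. All 43 were found by their Entrez identifiers among the 23403 genes of the count table. The values come from Hepa-1 cells, an established mouse hepatoma line, exposed to hexavalent chromium, Cr(VI), a metal that enters cells as chromate and damages DNA. RNA-seq covered 2 libraries of the acute treatment, 90 minutes in 25 µM Cr(VI), and 2 control libraries, for which no label states the regimen they accompany. FAIRE-seq, which enriches DNA that is little bound by protein, covered 1 library each of cells given the acute treatment, cells kept in 0.5 µM Cr(VI) over 20 passages, and the control of each. RNA-seq of the long-term cells was not analysed here. The labels do not say that replicates were separate cultures, so a p-value measures the spread between these libraries, which may be technical.

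Entry into mitosis is driven by the kinase Cdk1 bound to a cyclin, which Wee1 holds back and Cdc25 phosphatases release, and exit from it by the anaphase-promoting complex, APC/C, which marks cyclins and securin for destruction. Most of these genes are transcribed in a wave that is low after division and high in G2, held down by the DREAM complex in resting cells and driven by B-Myb and Foxm1 in dividing ones. Hepatoma lines divide continuously in culture and carry the RNAs of this wave at all times, while DNA damage can stop cells before mitosis through the checkpoint kinases and through p53 and its target Cdkn1a.

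Read counts summed to 32877791 and 32319676 in treated replicates 1 and 2 and to 33303645 and 37696116 in control replicates 1 and 2. Levels are given as CPM, counts scaled to a common library size with edgeR's TMM factors. Each member had between 335 and 22097 counts in every library, and all 43 passed the filter on low counts, as did 13619 genes in all. The treated libraries stood apart from each other and the controls did not. The members' summed level was 5744 CPM in treated replicate 1 and 4061 in treated replicate 2, beside 5961 and 5953 in the controls. Between the treated libraries 5 of the 43 members and 1320 of the 13619 tested genes lay more than 2-fold apart, and between the controls 0 members and 60 genes did. The difference between the controls was at most 0.12 on the log2 scale for any member. For this reason the named members are given in each treated library.

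Most members with a matched promoter stretch share short sequences that the list did not use. RefSeq promoter stretches of build GRCm38.p6 (mm10), from 250 bases before to 50 bases after a gene's start, were matched by symbol for 34 of the 43 members, in 37 stretches because Prc1, Ect2 and Bub3 have 2 each. Not matched were Ccna2, Cdc25c, Wee1, Aurkb, Incenp, Spc24, Kif20a, Tpx2 and Foxm1. The stretches were searched on both strands for TTTGAA or TTCGAA, the letters of the cell cycle genes homology region (CHR) at which DREAM and the B-Myb complex are known to bind, and for CCAAT, the box of the factor NF-Y. CHR letters were found in 27 of the 34 members (79.4%) and in 21.7% of the 27025 genes of the promoter table. CCAAT was found in 27 of 34 as well, beside 41.1% of all genes. Both stood in 1 stretch in 24 of 34 members (70.6%) and in 8.61% of all genes, or 7.45% of the 10669 tested genes with a stretch. These shares are descriptions without a test, and a match is a run of letters, not a shown binding site.

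The motifs lay at different places. Of the 69 CCAAT matches in the members' stretches, 46 fell within 100 bases before the start and 3 after it, with a median position of −67. Of the 40 CHR matches, 19 fell after the start and 11 within 100 bases before it, with a median position of −10. In the direction of the gene 31 were counted. TTCGAA reads the same on both strands and was always counted in that direction, so the count is partly set by this rule. The stretches of 1 gene can overlap, so 6 of the CCAAT and 4 of the CHR matches repeat a site already counted at another position, which leaves 63 and 36 distinct sites. In 1 place a CHR and a CCAAT match shared letters. The map of motif positions shows the members' stretches in full. Mad2l1, Birc5, Nuf2 and Pttg1 had neither motif, Ccnb1, Nek2 and Cenpe had CCAAT alone, and Ndc80, Kif2c and Anln had CHR alone.

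**Figure D1:**
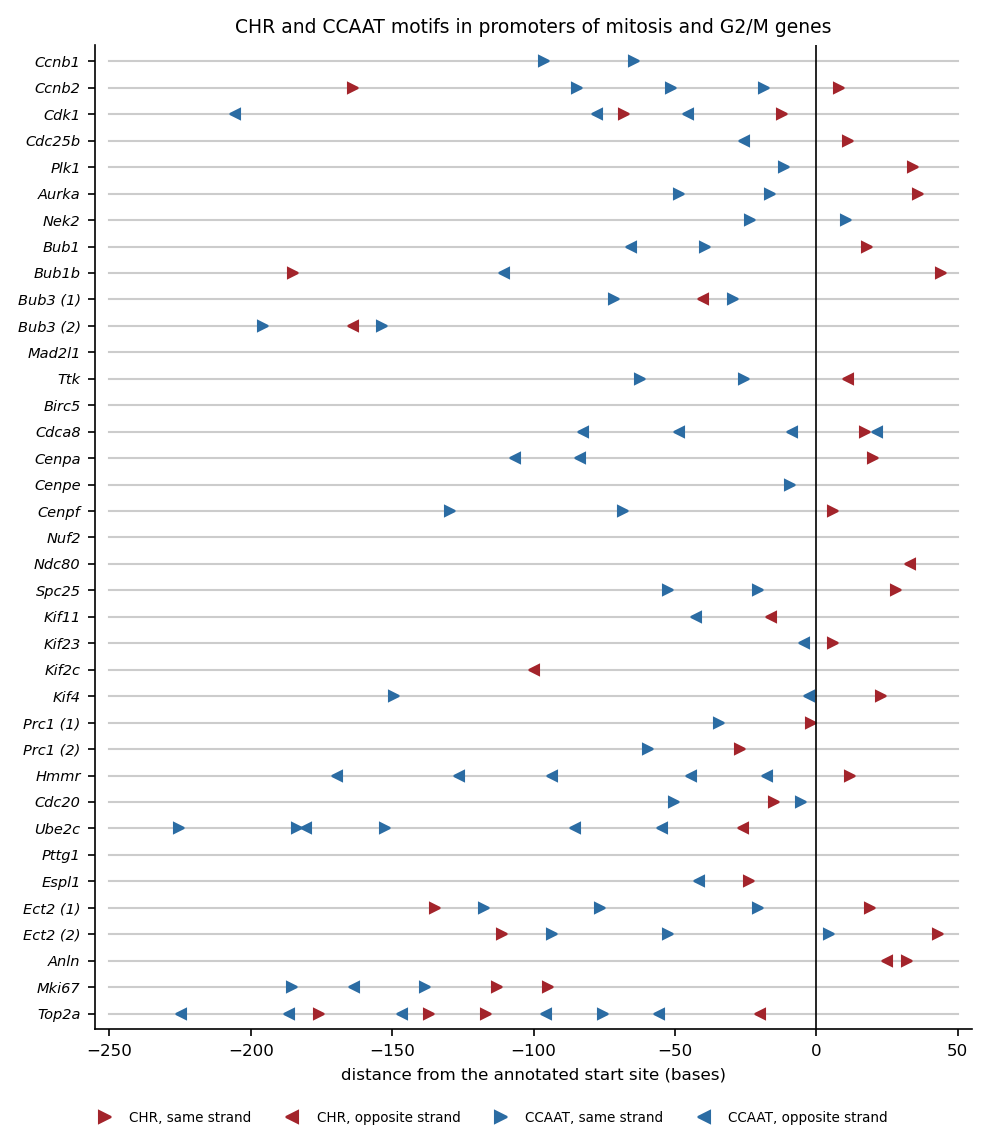
Positions of CHR letters (TTTGAA or TTCGAA) and CCAAT letters in the 37 RefSeq promoter stretches of 34 members, with the distance from the annotated start in bases on the x axis and 1 stretch per line. Arrows point along the strand of the match, and TTCGAA, which reads the same on both strands, is drawn along the gene. Of the 69 CCAAT matches 46 lie within 100 bases before the start, and 19 of the 40 CHR matches lie after it.

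Promoter sequence is shown for 6 well-known members whose values are given in full, 5 with both motifs and Ccnb1 with CCAAT alone: a cyclin, the kinases Cdk1 and Plk1, the APC/C enzyme Ube2c, topoisomerase and the division marker Ki-67. Only bases before the start and outside annotated exons are printed, 5′ to 3′ along the gene's strand, with CHR and CCAAT letters, in either direction, in capitals. The stretches are Ccnb1 at chr13:100786487-100786736 (minus strand), Cdk1 at chr10:69352913-69353162 (minus), Plk1 at chr7:122159185-122159434 (plus), Ube2c at chr2:164769679-164769928 (plus), Top2a at chr11:99024200-99024439 (minus) and Mki67 at chr7:135716451-135716629 (minus), all in build GRCm38.p6. Top2a has 4 CHR and 6 CCAAT matches in 240 bases, Ube2c 1 and 6, Cdk1 2 and 3, Mki67 2 and 3 in 179 bases, and Ccnb1 2 CCAAT matches without CHR. The printed stretch of Plk1 holds 1 CCAAT, and its CHR begins at base 31 after the start.
Ccnb1: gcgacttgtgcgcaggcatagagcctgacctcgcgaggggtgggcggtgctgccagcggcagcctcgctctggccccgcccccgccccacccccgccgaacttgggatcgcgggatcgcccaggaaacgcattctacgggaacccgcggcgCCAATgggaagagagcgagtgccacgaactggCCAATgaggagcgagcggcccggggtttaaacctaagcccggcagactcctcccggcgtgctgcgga
Cdk1: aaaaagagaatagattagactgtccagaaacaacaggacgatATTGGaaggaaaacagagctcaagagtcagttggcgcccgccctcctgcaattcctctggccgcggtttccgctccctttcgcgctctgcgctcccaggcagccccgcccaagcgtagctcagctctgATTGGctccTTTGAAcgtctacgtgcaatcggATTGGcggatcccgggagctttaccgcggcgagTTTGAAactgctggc
Plk1: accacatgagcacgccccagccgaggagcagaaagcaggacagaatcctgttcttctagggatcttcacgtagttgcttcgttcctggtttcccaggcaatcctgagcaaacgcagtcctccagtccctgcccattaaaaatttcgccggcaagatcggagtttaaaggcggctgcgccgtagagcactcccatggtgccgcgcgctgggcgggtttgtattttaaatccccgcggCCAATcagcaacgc
Ube2c: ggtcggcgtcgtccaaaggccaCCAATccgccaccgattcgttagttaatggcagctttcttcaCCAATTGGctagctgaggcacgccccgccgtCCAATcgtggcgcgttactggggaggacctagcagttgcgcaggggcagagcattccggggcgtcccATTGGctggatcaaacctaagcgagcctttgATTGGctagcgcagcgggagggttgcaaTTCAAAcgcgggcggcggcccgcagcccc
Top2a: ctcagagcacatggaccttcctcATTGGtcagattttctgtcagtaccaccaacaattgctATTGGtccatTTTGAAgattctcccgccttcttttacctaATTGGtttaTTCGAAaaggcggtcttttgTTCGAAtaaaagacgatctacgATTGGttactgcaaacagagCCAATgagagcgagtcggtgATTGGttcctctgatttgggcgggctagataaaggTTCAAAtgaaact
Mki67: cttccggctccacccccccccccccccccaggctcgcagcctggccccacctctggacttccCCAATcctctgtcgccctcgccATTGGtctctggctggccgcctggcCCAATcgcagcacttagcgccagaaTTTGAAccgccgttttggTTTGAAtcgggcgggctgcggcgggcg

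The first comparison asks whether the RNA of these genes differed between cells given the acute treatment and untreated ones. Most members lay lower in treated cells, with treated replicate 2 far lower than treated replicate 1. Incenp alone passed the test in the reported fit, which has no replicate block. With the replicate number as a block 10 of 43 members passed, 1 higher and 9 lower, beside 21.8% of all tested genes, as given in the last section. In treated replicate 2, 8 of 43 members lay more than 2-fold below the control mean, beside 11.2% of all tested genes, and in treated replicate 1, 0 did, beside 5.73%. The log2 fold change was negative for 37 of the 43 members, with a median of −0.22, where the median of all tested genes was −0.0047. In 25 of 43 members (58.1%) both treated libraries lay below both controls, which held for 34% of all tested genes. In 1 member, Incenp, both lay above, which held for 32.2% of all tested genes. In the remaining 17 the treated libraries fell on different sides of the controls or between them. In bulk RNA, fewer cells in G2 or mitosis and less RNA of these genes per cell cannot be told apart.

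By edgeR's quasi-likelihood test with Benjamini-Hochberg adjustment, at an adjusted p under 0.05, 1 of 43 members was called, 1 higher and 0 lower, while 4.63% of all 13619 tested genes were called, 1.78% higher and 2.85% lower. At an unadjusted p under 0.05 there were 4 members, Incenp higher and Birc5, Spc25 and Top2a lower, or 9.3% beside 30.7% of all tested genes. DESeq2 called 2 members, Incenp and Top2a, where it called 14.2% of 14170 genes, 978 higher and 1037 lower. The share of members called was thus under that of all genes by each of these rules. Among all genes edgeR called 243 higher and 388 lower. The 42 members not called had adjusted p-values from 0.0981 to 0.972 in edgeR's quasi-likelihood test with Benjamini-Hochberg adjustment.

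The treated libraries carried this pattern unequally. In treated replicate 2, 41 of the 43 members lay below both controls and 2 above both, where 49.8% and 45.7% of all tested genes did, and the median log2 ratio to the control mean was −0.49. In treated replicate 1, 26 lay below both controls and 16 above both, beside 46.3% and 46.7% of all tested genes, with a median of −0.058. Treated replicate 2 was lower than treated replicate 1 in 39 of 43 members (90.7%), which held for 50.6% of all tested genes. The plot of members by library shows this as a shift of nearly the whole list in 1 library. With treated replicate 1 left out, the median log2 fold change was −0.48 and 39 members were called, 2 higher and 37 lower. That fit called 77.6% of all 14177 genes tested in it, 38.1% higher and 39.4% lower. With treated replicate 2 left out, the median was −0.061, 27 of 43 members were negative and 31 were called, 13 higher and 18 lower, where 67.2% of 13883 genes were called, 32.5% higher and 34.7% lower. In both of these fits the lone treated library is assumed to vary like the controls and most tested genes pass. With either control left out, 0 members were called by edgeR's quasi-likelihood test, beside 2.07% of all genes without control replicate 1 and 2.02% without control replicate 2. In each of these fits 2 members had an unadjusted p under 0.05, and DESeq2 was not run on those 3 libraries.

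**Figure D2:**
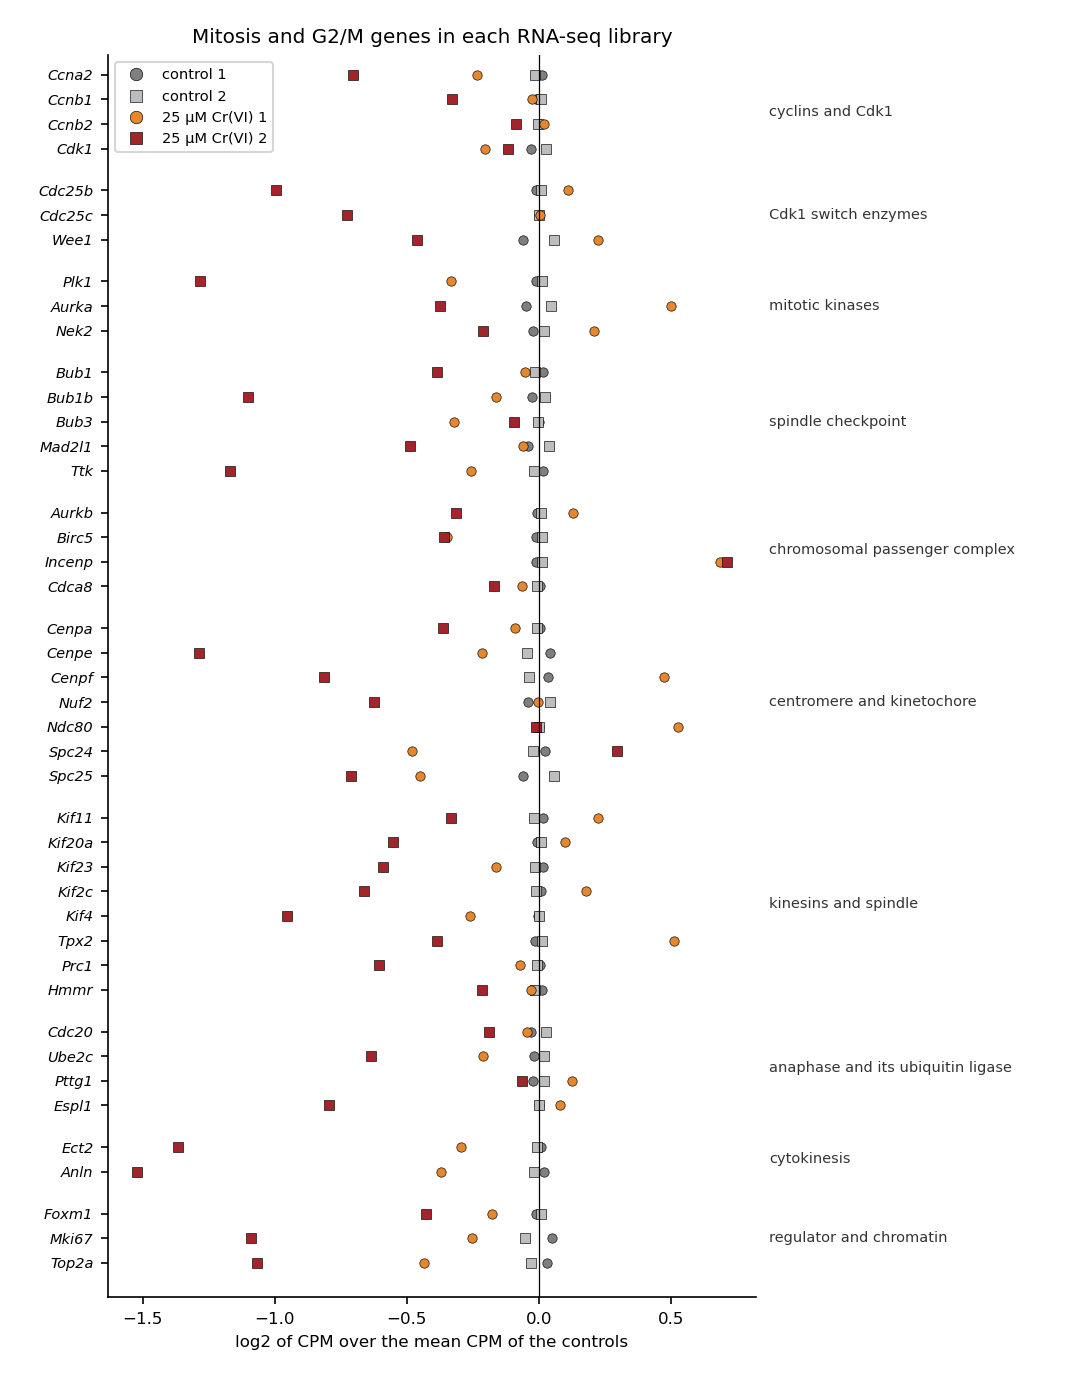
Log2 ratio of each library's CPM to the mean of the controls (x axis) for the 43 members, grouped by role, with 1 point for each of 2 treated and 2 control libraries. Treated replicate 2 lies below both controls in 41 members and treated replicate 1 in 26; Incenp is above both controls in both treated libraries.

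Named values are given for the called member, for Ccnb1, Cdk1, Plk1, Foxm1, Top2a and Mki67, and for the member of each role with the largest fold change in size. Other members are named after their values were seen. Per-library values are given as treated replicate 1, treated replicate 2, control replicate 1 and control replicate 2.

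The chromosomal passenger complex joins Aurkb to its partners Incenp, Birc5 (survivin) and Cdca8 (borealin), and corrects the attachment of chromosomes to the spindle. Incenp, the scaffold that binds and activates Aurkb (GeneID 16319, chr19:9872295-9899489, minus strand), had 7218, 6292, 4573 and 5225 counts. Its level was 213 and 217 CPM in treated and 132 and 134 CPM in control cells, or 215 ± 2.75 and 133 ± 1.49 (SD, n = 2). The groups did not overlap, and the treated libraries were about as close to each other as the controls. The mean was 1.62 times that of the controls, or 0.70 as a log2 fold change (standard error 0.10, adjusted p = 0.0449 in edgeR's quasi-likelihood test with Benjamini-Hochberg adjustment). DESeq2 gave an adjusted p of 0.00718. The log2 fold change stayed between 0.59 and 0.72 over the alternatives tried, and the call was lost in 3 of them. Without control replicate 1 the adjusted p was 0.598 in edgeR's quasi-likelihood test with Benjamini-Hochberg adjustment, without control replicate 2 it was 0.568, and with scaling to library size only it was 0.0715, in a range from 2.06e-74 to 0.598.

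The partners of Incenp did not share its direction. Birc5 had levels of 133, 132, 168 and 170.5 CPM, the treated libraries close to each other and below both controls, with a log2 fold change of −0.35 (standard error 0.10, adjusted p = 0.113 in edgeR's quasi-likelihood test with Benjamini-Hochberg adjustment). Aurkb and Cdca8 had log2 fold changes of −0.076 and −0.12. Aurkb lay above both controls in treated replicate 1 and below both in treated replicate 2.

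The cyclins and Cdk1, the engine of mitotic entry, all had negative log2 fold changes, from −0.45 to −0.032, and 0 of the 4 were called (edgeR's quasi-likelihood test; 0 at an unadjusted p under 0.05 and 0 by DESeq2). Cdk1 (GeneID 12534, chr10:69335146-69352912, minus strand) had levels of 245, 260.5, 277 and 288 CPM. Its treated libraries lay below both controls and close to each other, with a log2 fold change of −0.16 (standard error 0.12, adjusted p = 0.407 in edgeR's quasi-likelihood test with Benjamini-Hochberg adjustment). Ccnb1, cyclin B1, the partner of Cdk1 in mitosis (GeneID 268697, chr13:100778739-100786486, minus strand), had levels of 202, 164, 204 and 207 CPM. Treated replicate 1 lay just below the controls and treated replicate 2 further below, for a log2 fold change of −0.17 (standard error 0.15, adjusted p = 0.472 in edgeR's quasi-likelihood test with Benjamini-Hochberg adjustment). Ccna2, cyclin A2, which acts from S phase into G2, had levels of 154, 111, 183 and 179 CPM and a log2 fold change of −0.45 (standard error 0.19).

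The enzymes that switch Cdk1 are the phosphatases Cdc25b and Cdc25c and the kinase Wee1. The RNA of each lay above both controls in treated replicate 1 and below both in treated replicate 2. For Cdc25c treated replicate 1 was hardly above the controls, at 19.27 CPM beside 19.21 in each. Cdc25b had levels of 131, 60.7, 120.5 and 122 CPM and a log2 fold change of −0.34 (standard error 0.38). Without treated replicate 2 its log2 fold change was 0.11. For these 3 genes the median log2 fold change was −0.32, and 0 were called (edgeR's quasi-likelihood test; 0 at an unadjusted p under 0.05 and 0 by DESeq2).

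Of the mitotic kinases, Plk1, which acts from entry to cytokinesis (GeneID 18817, chr7:122159435-122169884, plus strand), had levels of 104, 53.6, 130 and 132 CPM. Both treated libraries lay below both controls, treated replicate 2 far lower, for a log2 fold change of −0.73 (standard error 0.33, adjusted p = 0.218 in edgeR's quasi-likelihood test with Benjamini-Hochberg adjustment). Aurka, which builds the spindle poles, and Nek2, which parts the centrosomes, had log2 fold changes of 0.13 and 0.016, above both controls in treated replicate 1 and below both in treated replicate 2. Tpx2, the spindle protein that activates Aurka, had the same arrangement of libraries and a log2 fold change of 0.13. With scaling to library size only, Nek2 and Pttg1 changed sign, and 39 of the 43 members were negative.

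All 5 genes of the spindle checkpoint, which delays anaphase until every chromosome is attached, had both treated libraries below both controls, as did 34% of all tested genes. Their log2 fold changes lay between −0.64 and −0.20, the median was −0.26, and 0 were called (edgeR's quasi-likelihood test; 0 at an unadjusted p under 0.05 and 0 by DESeq2). Ttk, the kinase Mps1 that starts the signal, had levels of 26.6, 14.1, 32.2 and 31.5 CPM and a log2 fold change of −0.64 (standard error 0.33). Bub3 was lower in treated replicate 1 than in treated replicate 2, with log2 ratios to the control mean of −0.32 and −0.094, while Bub1, Bub1b, Mad2l1 and Ttk had the opposite order.

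Of the 7 centromere and kinetochore genes, 6 had negative log2 fold changes, with a median of −0.22. Cenpe, the kinesin that moves chromosomes to the spindle equator, had levels of 152, 72.0, 182 and 171 CPM and a log2 fold change of −0.66 (standard error 0.37). The 4 subunits of the Ndc80 complex, which holds the microtubule, were not called. Ndc80 had a log2 fold change of 0.28, Nuf2 of −0.28, Spc24 of −0.041 and Spc25 of −0.58. Spc25 had both treated libraries below both controls, at 27.9 and 23.3 CPM beside 36.6 and 39.7 (adjusted p = 0.0981 in edgeR's quasi-likelihood test with Benjamini-Hochberg adjustment). Spc24 was the 1 member with treated replicate 1 below both controls and treated replicate 2 above both, at 21.2 and 36.3 CPM beside 30.0 and 29.1. For Cenpf, the treated libraries lay farthest apart of all members on the log2 scale, at 115 and 47.1 CPM around controls of 84.8 and 80.7.

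The log2 fold changes of the 8 kinesins and spindle proteins lay between −0.57 and 0.13 around a median of −0.18, and all 8 lay below both controls in treated replicate 2. Kif4, a chromosome-bound kinesin, had the largest in size, with levels of 74.2, 45.8, 88.7 and 88.9 CPM and a log2 fold change of −0.57 (standard error 0.25). Treated replicate 1 was on different sides of the controls in this group: Kif11, Kif20a, Kif2c and Tpx2 lay above both, and Kif23, Kif4, Prc1 and Hmmr below both.

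Anaphase is started by APC/C with its activator Cdc20 and its ubiquitin-conjugating enzyme Ube2c, which remove Pttg1 (securin) and so free the protease Espl1 (separase). Ube2c had levels of 231, 172, 263 and 270.3 CPM, both treated libraries below both controls, and a log2 fold change of −0.41 (standard error 0.18). Cdc20, Pttg1 and Espl1 had log2 fold changes of −0.12, 0.034 and −0.29, and Pttg1 and Espl1 lay above both controls in treated replicate 1.

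Of the 2 cytokinesis genes, Anln had the most negative log2 fold change of the list. Anln, anillin, a scaffold of the contractile ring (GeneID 68743, chr9:22331214-22389211, minus strand), had levels of 234, 105, 306 and 298 CPM. Both treated libraries lay below both controls and were more than 2-fold apart, so that the log2 fold change of −0.83 came with a standard error of 0.40 (adjusted p = 0.234 in edgeR's quasi-likelihood test with Benjamini-Hochberg adjustment, 0.0705 in DESeq2). Ect2, the exchange factor that activates RhoA at the cell equator, had a log2 fold change of −0.73 and log2 ratios to the control mean of −0.30 in treated replicate 1 and −1.37 in treated replicate 2.

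The last 3 members act on transcription and chromosome structure, and each had both treated libraries below both controls, where 34% of all tested genes did. Top2a, topoisomerase II alpha, which untangles sister chromatids (GeneID 21973, chr11:98992947-99024199, minus strand), had levels of 427, 276, 589 and 565 CPM. The difference was −0.72 as a log2 fold change (standard error 0.25, adjusted p = 0.146 in edgeR's quasi-likelihood test with Benjamini-Hochberg adjustment), and DESeq2 called it at an adjusted p of 0.0386. Mki67, the surface protein of mitotic chromosomes used as a marker of dividing cells (GeneID 17345, chr7:135689784-135716450, minus strand), had levels of 224, 125, 277 and 258 CPM and a log2 fold change of −0.61 (standard error 0.30). Foxm1, the transcription factor of the G2/M wave (GeneID 14235, chr6:128362994-128375886, plus strand), had levels of 180.2, 151, 202 and 205 CPM and a log2 fold change of −0.30 (standard error 0.13). The plot of named members shows the treated libraries on separate levels for Anln, Top2a and Mki67 and together for Incenp and Cdk1.

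**Figure D3:**
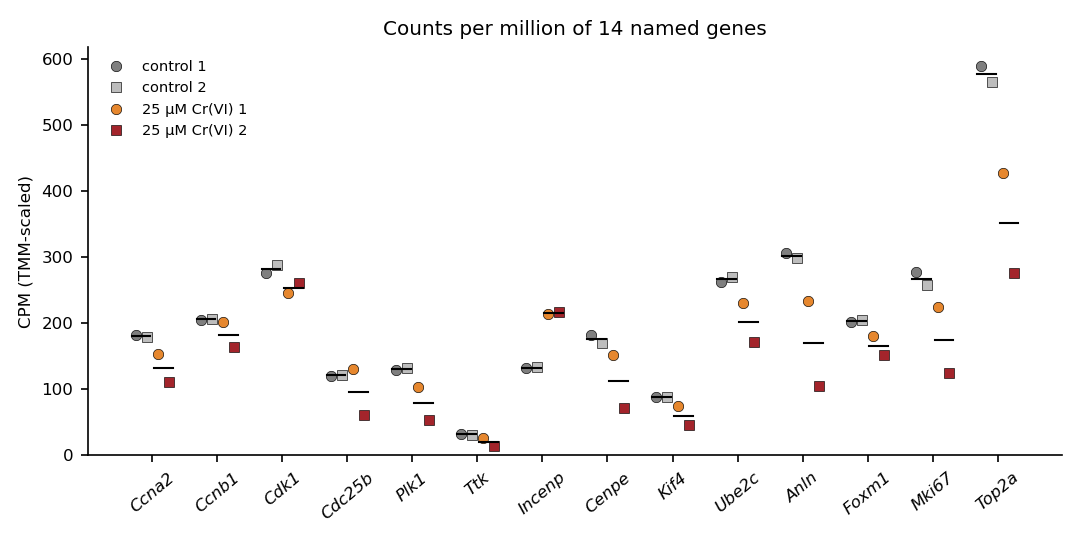
Normalised level in CPM of the named members in each library, 2 treated and 2 control, with the group mean as a bar. Incenp is higher in both treated libraries, and the other named members have treated replicate 2 lower than both controls.

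The members differed widely in level in control cells. Per kilobase of annotated exon the control mean was highest for Ube2c, at 286 CPM per kb, followed by Top2a at 110.5, Cdc20 at 101 and Ccnb1 at 88.8. The lowest were Cdc25c at 9.66, Kif4 at 9.13 and Cenpf at 7.28 CPM per kb, and the median was 32.4. Exons of all annotated transcripts are counted in the length, so a gene with seldom-used exons has a lower level per kilobase than its main transcript. The SD between the controls was at most 5.91% of a member's mean.

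The difference between the treated libraries varied with the length of the gene. Across the 43 members, whose genes span 2.97 to 101 kb, the log2 ratio of treated replicate 2 to treated replicate 1 ran from −1.29 to 0.78, with a median of −0.53. Its Spearman correlation with the genomic span was −0.559 over the 43 members and −0.247 over 13568 tested genes, and with exon length −0.511 and −0.311. These are across genes within the same pair of libraries, and genes are not independent replicates. The median was −0.30 in the 11 members under 10 kb, where 3796 tested genes had 0.19. It was −0.26 in the 11 members of 10 to 20 kb beside 0.067 in 2772 tested genes, and −0.62 in the 13 members of 20 to 40 kb beside −0.019 in 2880. In the 7 members of 40 to 100 kb it was −1.07, where 2616 tested genes had −0.19, and Kif4, alone at 100 kb or more, had −0.69 beside −0.25 in 1504. In each class the members lay lower than the tested genes, as the plot by genomic span shows. The log2 ratio of treated replicate 1 to the control mean had a correlation of 0.0624 with the members' span, and that of treated replicate 2 had −0.456. Over all tested genes these were −0.0891 and −0.240. The part of gene length in the members' values was not tested.

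**Figure D4:**
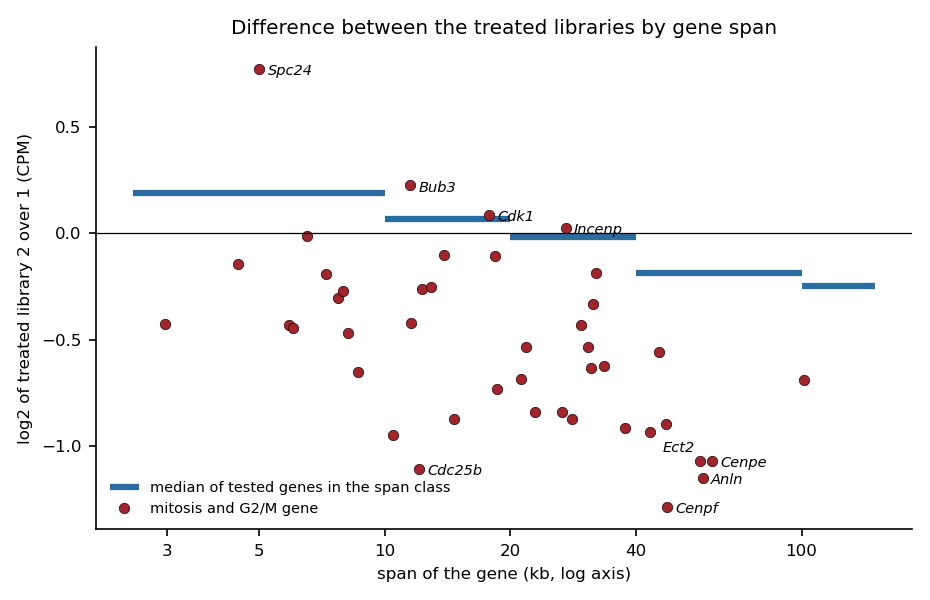
Log2 ratio of treated replicate 2 to treated replicate 1 (y axis) against genomic span in kb (x axis, log scale) for the 43 members, with the median of tested genes in each span class as a bar. Members of 40 to 100 kb have a median of −1.07 and tested genes of that span −0.19.

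Promoter class and value can be set side by side without a test. Of the 24 members with CHR and CCAAT letters in 1 stretch, 23 had a negative log2 fold change, with a median of −0.30. The medians were −0.17 for the 3 members with CCAAT alone, −0.18 for the 3 with CHR alone, −0.27 for the 4 with neither motif and −0.078 for the 9 without a promoter stretch. In treated replicate 1 the medians against the control mean were −0.13 with both motifs, −0.026 with CCAAT alone, 0.18 with CHR alone, −0.030 with neither and 0.10 without a stretch. In treated replicate 2 they were −0.62, −0.33, −0.66, −0.42 and −0.43 in the same order, so the class with CHR alone was the highest in 1 treated library and the lowest in the other.

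Other genes of the cell cycle were read in 5 lists. Of 81 other mitotic genes 80 were tested and 0 were called in either direction (edgeR's quasi-likelihood test; 8 higher and 14 lower at an unadjusted p under 0.05, 3 higher and 7 lower by DESeq2). Their median log2 fold change was −0.13, and 56 of 80 were lower in treated replicate 2 than in treated replicate 1. Against the control mean their median log2 ratio was 0.013 in treated replicate 1 and −0.32 in treated replicate 2. The 17 genes of APC/C and its regulators had a median of 0.077, 0 called (edgeR's quasi-likelihood test; 0 at an unadjusted p under 0.05 and 0 by DESeq2), and 8 of 17 lower in treated replicate 2 than in treated replicate 1. In the plot of the lists the medians of the members, the other mitotic genes, the DNA replication and G1/S genes and the DREAM, B-Myb and E2F genes lie below that of all tested genes, and those of the APC/C and G2 checkpoint genes above it.

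Of the 23 genes of DREAM, B-Myb and E2F, which govern the members' transcription, 1 was called lower and 0 higher, or 4.35% beside 4.63% of all tested genes (edgeR's quasi-likelihood test; 2 higher and 2 lower at an unadjusted p under 0.05, 0 higher and 1 lower by DESeq2). The median was −0.027. The called gene was E2f2, an activator of S-phase genes, with 97, 68, 225 and 279 counts and levels of 2.87, 2.35, 6.47 and 7.14 CPM. It was lower in 2 of 2 treated libraries, with a log2 fold change of −1.38 (standard error 0.22, adjusted p = 0.0489 in edgeR's quasi-likelihood test with Benjamini-Hochberg adjustment, 0.00282 in DESeq2). With control replicate 1 left out its adjusted p was 0.251 in edgeR's quasi-likelihood test, with control replicate 2 left out 0.355, and with library size only 0.0657, while its log2 fold change was −1.47, −1.33 and −1.48 in these fits. Of 53 genes of DNA replication and the G1/S step 52 were tested, and 0 were called (edgeR's quasi-likelihood test; 2 higher and 15 lower at an unadjusted p under 0.05, 0 higher and 6 lower by DESeq2). Their median of −0.16 was near that of the mitotic genes, but the treated libraries had the opposite order, with 11 of 52 lower in treated replicate 2 than in treated replicate 1, against 39 of 43 members.

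Of 16 G2 checkpoint genes, a list of checkpoint kinases, p53 and p53 targets, several of them with roles beyond G2, 15 were tested and 0 were called (edgeR's quasi-likelihood test; 4 higher and 1 lower at an unadjusted p under 0.05, 6 higher and 1 lower by DESeq2). Their median log2 fold change was 0.66. Against the control mean their median log2 ratio was 0.22 in treated replicate 1 and 1.16 in treated replicate 2. In treated replicate 1, 9 of the 15 lay above both controls, beside 46.7% of all tested genes, and in treated replicate 2, 12 did, beside 45.7%. Among them, and named after the values were seen, Cdkn1a, the p53 target that inhibits cyclin-dependent kinases, had levels of 438, 1751, 361 and 364 CPM. Its log2 fold change was 1.59, with adjusted p-values of 0.198 in edgeR's quasi-likelihood test with Benjamini-Hochberg adjustment and 0.224 in DESeq2. Of the checkpoint kinases, Atm, Atr and Chek2 lay below both controls in both treated libraries, and Chek1 lay below both in treated replicate 1 and above both in treated replicate 2, at 15.2, 19.3, 17.8 and 16.3 CPM. Atm had levels of 15.8, 11.7, 26.3 and 25.2 CPM and a log2 fold change of −0.91, with adjusted p-values of 0.075 in edgeR's quasi-likelihood test with Benjamini-Hochberg adjustment and 0.00868 in DESeq2. Mdm2 and Ccng1, p53 targets as well, lay below both controls in treated replicate 1 and above both in treated replicate 2, with levels of 298, 931, 421 and 413 CPM for Mdm2 and 388, 562, 428 and 431 CPM for Ccng1. Gadd45a, which can part Cdk1 from cyclin B, had levels of 21.2, 31.5, 11.3 and 12.0 CPM (log2 fold change 1.18, adjusted p = 0.069 in edgeR's quasi-likelihood test with Benjamini-Hochberg adjustment, 0.00114 in DESeq2). Whether the levels of these genes and of the members are linked was not tested.

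**Figure D5:**
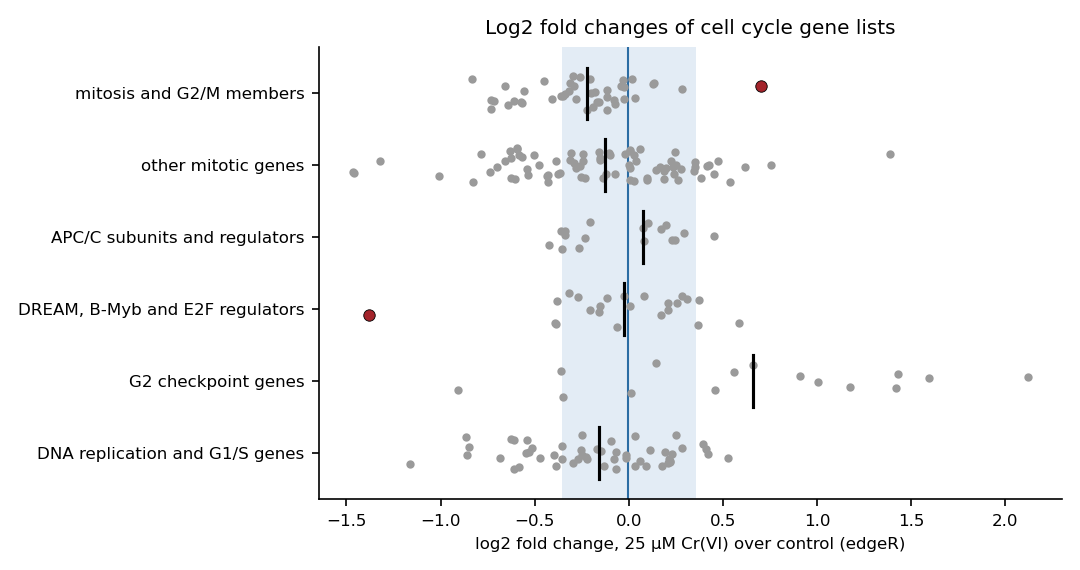
Log2 fold change (treated over control, edgeR) of each tested gene in the members and the 5 other lists; red points are called at an adjusted p under 0.05, the black bar is the list's median, the shaded band holds the middle of all tested genes from the 25 to the 75 percentile and the blue line is their median. The members' median is −0.22 and that of the G2 checkpoint genes 0.66.

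Markers of cell types were read beside the members. Of 10 hepatocyte markers 9 were tested and 2 were called higher, Alb and Ttr, where 1.78% of all tested genes were (edgeR's quasi-likelihood test). At an unadjusted p under 0.05 there were 5 higher, and DESeq2 called 4 higher, Alb, Ttr, Trf and Apoa2. The list's summed level was 5360 and 5971 CPM in treated and 2266 and 2333 CPM in control libraries. Its most abundant gene in the treated libraries was Alb, serum albumin, at 3667 and 3550 CPM beside 905 and 948 in the controls. Ttr was low in every library, with 61, 57, 12 and 13 counts and levels of 1.80, 1.97, 0.35 and 0.33 CPM. Trf, transferrin, the most abundant in the controls, had levels of 1432, 2076, 1094 and 1111 CPM, above both controls in both treated libraries (adjusted p = 0.157 in edgeR's quasi-likelihood test with Benjamini-Hochberg adjustment, 0.0459 in DESeq2). The hepatocyte factor Foxa2 had levels of 77.2, 54.4, 53.0 and 54.1 CPM, while Hnf4a had 8 to 15 counts. Apoa1, a liver apolipoprotein, had 2 and 9 counts in treated libraries and 0 in the controls, and Afp and Cyp1a1 lay below both controls in treated replicate 1 and above both in treated replicate 2. Of 7 fibroblast markers 4 were tested and Dcn was called higher, with a summed level of 1207, 1373, 655 and 665 CPM, most of it Dcn, and Thy1 at 0. Of the 4 tested, 2 had negative log2 fold changes, and Pdgfra lay below both controls, at 10.8 and 7.80 CPM beside 12.9 and 12.9. Of 7 blood cell markers 2 were tested and 0 were called (edgeR's quasi-likelihood test; 1 lower at an unadjusted p under 0.05 and 0 by DESeq2), with a summed level of 7.92, 25.6, 12.9 and 13.5 CPM, Cd68 the most abundant and Cd3e and Hbb-bs at 0. Of 5 endothelial markers 2 were tested and Pecam1 was called higher, with a summed level of 2.48, 2.59, 0.92 and 1.07 CPM and Cdh5 at 0. The blood cell and endothelial sums were thus low in all 4 libraries, and the hepatocyte, fibroblast and endothelial sums were higher in both treated libraries than in both controls. With either control left out, none of Alb, Ttr, Dcn and Pecam1 was called by edgeR's quasi-likelihood test, with adjusted p-values from 0.214 to 0.44, while the log2 fold changes were 1.91 and 1.98 for Alb, 2.47 and 2.42 for Ttr, 1.12 and 1.15 for Dcn and 2.02 and 2.01 for Pecam1. The part of any of these markers in the members' values was not tested.

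Reads of overlapping genes are uncertain, since the use of strand in counting is not stated. Another annotated gene overlaps 15 of the 43 members, and for 8 of them it is in the count table: Ccna2, Aurka, Kif20a, Prc1, Cdc20, Ect2, Anln and Foxm1. Cstf1, across from Aurka, had levels of 94.5, 78.7, 64.4 and 66.1 CPM, above both controls in both treated libraries. Exosc9, across from Ccna2, had levels of 61.4, 70.7, 75.3 and 77.8 CPM, and Elovl1, across from Cdc20, 87.4, 101, 119 and 126 CPM, in each case below both controls. The genes across from Kif20a were Cdc23, whose level was 111 CPM in treated replicate 1 and 118 in each control and lower in treated replicate 2 (2173 counts), and Brd8, at 96.7, 99.0, 86.8 and 87.9 CPM. The genes that overlap Prc1, Ect2, Anln and Foxm1 had at most 7.46 CPM. Incenp holds a pseudogene, Gm19054, on the other strand, which is not in the count table.

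The second comparison asks whether chromatin that opened under Cr(VI) lay at these genes. FAIRE peaks were read from the authors' lists of regions open in treated cells, 2945 at 25 µM and 860 at 0.5 µM. The paper reports slightly more opened regions for each treatment than these lists hold. Each list came from 1 treated library against 1 control, with no read counts per peak and no replicate check. A peak centre within 1000 bp of an annotated start site was found for 0 of the 43 members in either list, where 1.05% of 23281 annotated genes had 1 in the 25 µM list and 0.85% in the 0.5 µM list. At these shares a count of 0 among 43 genes is not a result about the members. The median distance from a member's start site to the nearest peak was 161 kb in the 25 µM list and 868 kb in the 0.5 µM list, beside 219.9 and 865 kb for all genes.

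Inside the members, the 25 µM list had a peak in 2 genes, Birc5 and Kif2c, beside 5.95% of all genes, and the 0.5 µM list in 0, beside 1.95%. The peak in Birc5 lay at chr11:117854939-117855062, 5.76 kb from the annotated start, with a score of 66.0 (the score is −10 times the log10 of the MACS p-value). The peak in Kif2c, a kinesin that takes microtubules apart at the centromere, lay at chr4:117169983-117170138, 8.66 kb from the nearest of its annotated alternative starts, with a score of 67.7. Its 156 bases are shown because part of them is coding exon, which was not checked for the peak in Birc5. They are given in build GRCm38.p6, 5′ to 3′ on the minus strand along the gene. The 69 coding exon bases are in capitals and the 87 intron bases in lower case.
Kif2c: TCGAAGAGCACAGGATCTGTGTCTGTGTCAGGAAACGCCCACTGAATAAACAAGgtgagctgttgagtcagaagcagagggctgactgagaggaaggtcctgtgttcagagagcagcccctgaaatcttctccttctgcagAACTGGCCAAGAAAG
The intron holds 1 AP-1 sequence, TGAGTCA, searched on both strands with TGACTCA after the peak had been read. Either occurs in 354 of the 2945 peaks of that list (12.0%). The level of Kif2c was above both controls in treated replicate 1 and below both in treated replicate 2, with a log2 fold change of −0.18 (standard error 0.30).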

How the data were processed

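Per-gene read counts were deposited by the authors, who aligned reads to mm10 with TopHat and did not normalize. The counting tool is not stated. Peak scores were deposited by the authors, who aligned with BWA and called peaks with MACS, 1 treated against 1 control library. The members and all lists were chosen with earlier results of these data known, so no test was run over a list. Counts of 4 libraries were scaled by TMM and filtered by filterByExpr, and 13619 genes were tested (edgeR, quasi-likelihood, two-sided, no block, Benjamini-Hochberg over all genes, threshold 0.05). CPM ratios used a pseudocount of 0.1. The biological coefficient of variation was 0.193. The TMM factor was 1.03 for treated replicate 1, 0.897 for treated replicate 2 and 1.04 for each control. Genes were placed on RefSeq GRCm38.p6, where 23281 of 23403 identifiers matched. Named members were each called member, 6 set genes (Ccnb1, Cdk1, Plk1, Foxm1, Top2a, Mki67) and the largest change in each of 10 roles. Of the other lists the 3 largest called rises and falls were to be named. Alternatives were a replicate block, library size only, upper-quartile factors, no filter, DESeq2, each library left out, an adjusted p under 0.10, other distances and a peak score of at least 100. A hepatocyte marker of the planned list is not reported here. Steps were tested on simulated data. Tests ran in edgeR 4.0.16 (with limma 3.58.1) and DESeq2 1.42.0 under R 4.3.3. Tables and plots were made with pandas 2.3.3, matplotlib 3.10.9, scipy 1.17.1 and numpy 2.4.6 under Python 3.11.15.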

Additional observations from a re-analysis of the deposited data

How the results depend on the processing

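The number of members called was 1, as in the reported fit, with upper-quartile factors, beside 627 (4.60%) of all genes, and with no filter, beside 777 (4.12%). It was 0 with library size only (edgeR; 4 at an unadjusted p under 0.05), beside 456 genes (3.35%), 2 with DESeq2 and its own size factors, beside 2015 (14.2%), and 2 at an adjusted p under 0.10, beside 2212 (16.2%). When 1 library was left out it was 0 to 39, beside 287 (2.02%) to 10995 (77.6%) of all genes. A lone library is assumed to vary like the other group. With the replicate number as a block, 10 members (1 higher, 9 lower) and 2969 genes (21.8%; 1397 higher, 1572 lower) were called. The members were Incenp, higher, and Plk1, Bub1b, Ttk, Cenpe, Kif4, Ect2, Anln, Mki67 and Top2a, lower. Same-numbered libraries deviated from their group means with a correlation of 0.091. With 2 libraries per group this value is necessarily the same for both numbers, and the controls hardly deviated. It therefore cannot show whether the numbers pair the libraries. The reported fit has no block because the methods of the study name none. The cause of these moves was not tested.

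The members' median log2 fold change was negative in every alternative, from −0.48 to −0.061. With library size only it was −0.32 and that of all tested genes −0.11. The alternatives that kept all libraries gave 70 values for the 14 named members. Of these, 61 kept direction and side of the threshold, 8 newly passed it, 1 no longer did and 0 reversed. With 1 library left out, where only direction is compared here, 1 of 56 values reversed. Cdc25b had −0.99 without treated replicate 1 and 0.11 without treated replicate 2. FAIRE counts at start sites were 0 under each distance, overlap and score tried.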
